A study of Homo sapiens with 10 samples.

Results

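Transcripts of SRC and SYK family tyrosine kinases were compared between a cyclophosphamide-resistant subline and its drug-sensitive parent, human leukaemia cells of the chronic myeloid type (CML). Cyclophosphamide is an alkylating drug. The listed genes were 6 SRC family members (FYN, YES1, LYN, SRC, FGR and LCK), their inhibitory kinase CSK, and the downstream kinases SYK and BTK. They were chosen by name, with earlier results of these data known. The platform annotation gives 19 probe sets to these 9 genes, of 12558 probe sets and 8226 named genes in all. The data were 5 arrays of resistant cells and 5 arrays of sensitive cells, and the labels name culture medium and no drug exposure for either. They give neither the name of the line nor how resistance was raised. Whether the 5 replicates were grown separately is not stated, so p-values reflect a spread that may be only technical.

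SRC family kinases sit at the inner face of the plasma membrane and pass signals from receptors and adhesion sites by phosphorylating tyrosines. CSK phosphorylates an inhibitory tyrosine in their tails and so keeps them inactive, whereas several phosphatases remove that mark. In blood cells SRC family kinases phosphorylate the ITAM motifs of immune receptors, which recruit SYK, and SYK with its adaptors then engages BTK and phospholipase C gamma. In CML, LYN and other family members are known to be activated by the BCR-ABL fusion kinase, and several drugs that inhibit BCR-ABL also bind SRC family kinases.

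In resistant cells FYN was well above background, which it was not in sensitive cells, YES1 was 4.47-fold brighter, and SYK was lower in every one of its probe sets, by 3.17-fold to 3.95-fold in mean signal. CSK was 1.70-fold lower by the same measure, a marginal call that was lost under 9 of 18 alternative settings. LYN was 1.43-fold to 1.62-fold lower in mean signal without passing the test, and SRC, FGR, LCK and BTK did not pass it either. In RNA from whole cultures, fewer cells of a type and less RNA per cell cannot be told apart. Of the 19 probe sets 3 were called higher and 4 lower in resistant arrays, where a call means an adjusted p (limma, Benjamini-Hochberg) under 0.05. Over all probe sets the same rule called 7.41%, with 4.42% higher and 2.99% lower. The kinase calls fell on 4 genes, and the kinases were chosen with earlier results known. Resistant and sensitive arrays did not overlap in 6 of the 19 probe sets, against 8.5% of all probe sets. The median log2 difference of the 19 was -0.06, beside 0.03 over all probe sets.

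The signals are linear MAS5 values, 1 for each probe set on each array. Differences are on the scale of log2(signal + 114.8), where the added constant keeps dim signals from dominating and so understates the change of dim probe sets. A background limit was set per array as the 95th percentile of 28 control probe sets without a human target, and it lay between 308.9 and 751. Arrays of both groups were alike in quality. Between 50.7% and 61.8% of probe sets lay above the limit on resistant arrays, and between 52.5% and 58.8% on sensitive arrays. Pearson's r of log2 signals across probe sets was 0.927 to 0.957 between resistant arrays, 0.925 to 0.960 between sensitive arrays and 0.883 to 0.923 between arrays of different groups. Probe sets differ in how well they bind their targets, so no probe set's level is set against another's.

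**Figure D1:**
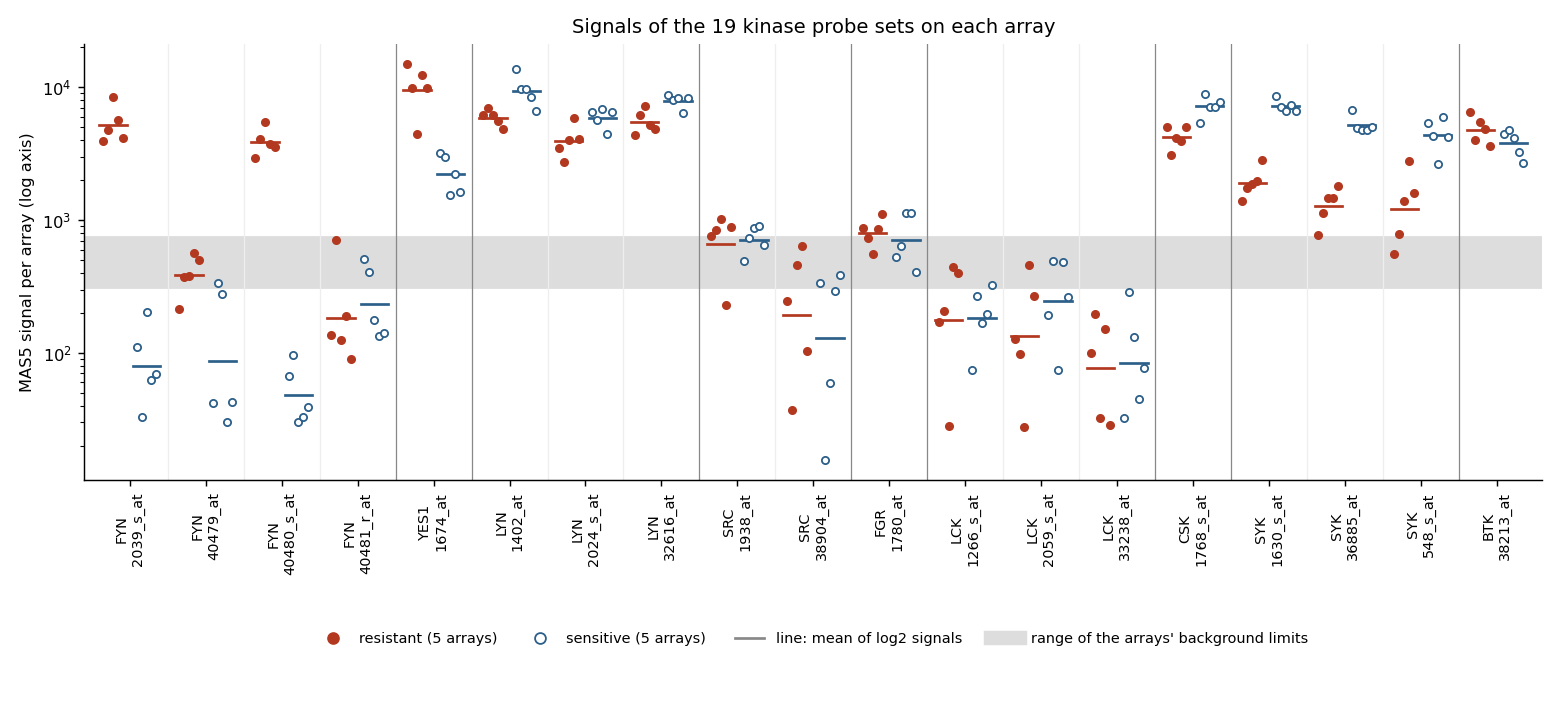
MAS5 signal (log axis) of each of the 19 kinase probe sets on every array, with resistant arrays (filled points) left of sensitive arrays (open points), lines at the mean of log2 signals, and a grey band over the range of the arrays' background limits (308.9 to 751). The FYN probe sets 2039_s_at and 40480_s_at lie above the band in resistant cells and below it in sensitive cells, and the LCK probe sets lie in or below it in both.

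The upstream sequences of FYN, YES1 and SYK are shown because these are the members with the largest differences, in opposite directions. RefSeq windows of GRCh38.p14 run from 250 bases before an annotated start to 50 after it, and 7 of the 9 genes have at least 1 window. FYN has 4 windows and SYK 3, and the window at the gene's outer end is given for both. YES1 has 1, which does not hold the outer end of the gene. Capitals mark matches, on either strand and with overlaps kept, to any of 5 motifs. The GC box was searched as GGGCGG and the CCAAT box by the letters of its name. The TATA box was searched as TATAAA. The ETS core was searched as CGGAAG, and the GATA motif, bound by blood transcription factors, as AGATAA.
FYN, chr6:111873403-111873702, minus strand: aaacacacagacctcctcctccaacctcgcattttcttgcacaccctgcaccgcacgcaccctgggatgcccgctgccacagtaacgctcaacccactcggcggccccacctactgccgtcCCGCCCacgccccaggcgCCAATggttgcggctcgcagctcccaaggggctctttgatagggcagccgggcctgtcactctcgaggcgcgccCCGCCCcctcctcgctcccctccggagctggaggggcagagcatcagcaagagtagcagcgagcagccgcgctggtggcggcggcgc
YES1, chr18:812193-812492, minus strand: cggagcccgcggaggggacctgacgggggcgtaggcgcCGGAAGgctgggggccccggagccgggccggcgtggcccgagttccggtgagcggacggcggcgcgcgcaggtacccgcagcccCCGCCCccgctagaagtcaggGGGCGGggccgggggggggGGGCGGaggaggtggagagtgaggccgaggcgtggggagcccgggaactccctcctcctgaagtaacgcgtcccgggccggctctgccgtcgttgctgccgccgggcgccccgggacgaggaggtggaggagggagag
SYK, chr9:90801350-90801649, plus strand: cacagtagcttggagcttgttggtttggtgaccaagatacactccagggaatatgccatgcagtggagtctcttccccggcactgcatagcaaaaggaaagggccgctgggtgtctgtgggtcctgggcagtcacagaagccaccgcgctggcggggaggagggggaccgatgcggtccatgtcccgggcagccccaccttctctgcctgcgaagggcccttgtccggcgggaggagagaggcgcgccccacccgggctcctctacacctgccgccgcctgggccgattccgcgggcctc
The FYN window holds 2 GC boxes and 1 CCAAT box, the YES1 window 3 GC boxes and 1 ETS core, and the SYK window none of the 5 motifs. Among all 35116 windows a GC box is found in 45.0%, a CCAAT box in 34.6%, an ETS core in 19.5%, a TATA box in 11.5% and the GATA motif in 10.3%. All 3 windows are rich in G and C, with 69% in FYN, 78.7% in YES1 and 66% in SYK, against a median of 58.7%. These matches describe the letters only. Which start the cells use was not measured.

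FYN, a SRC family kinase best known from T cells, platelets and brain, showed the largest difference of the members. Its probe set 2039_s_at read 3924, 4808, 8475, 5635 and 4163 on the resistant arrays, against 111, 32.6, 202, 62.6 and 68.9 on the sensitive arrays. All resistant arrays were above their limit and no sensitive array was, so the groups were far apart. The rise was at least 10.6-fold as a bound over background (log2 difference 4.71, SE 0.26, adjusted p = 4.74e-07, limma). For such a bound, the bright group enters with its own signals on all its arrays. Each array of the dim group enters at its background limit or at its own signal, whichever is higher.

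The second FYN probe set, 40480_s_at, showed the same pattern. It read 2959, 4052, 5490.2, 3719.6 and 3568 on resistant arrays, against 66.5, 96.3, 30, 33.1 and 39.4 on sensitive arrays. That is at least 7.93-fold higher (log2 difference 4.59, SE 0.20, adjusted p = 1.08e-07, limma). Both probe sets are annotated to the same reference transcript, and the suffix _s_at marks probes that can match several transcripts of a family.

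The other FYN probe sets were dim and not called. Probe set 40479_at never exceeded the limit, with 212 to 561 in resistant and 30 to 336 in sensitive cells (log2 difference 1.14, adjusted p = 0.0903, limma). Probe set 40481_r_at, whose suffix marks a probe choice that met fewer design rules, averaged 249 ± 257 in resistant and 274 ± 173 in sensitive arrays (SD, n = 5 each), with 1 array of each group above the limit. The FYN difference thus rests on the pair of probe sets with signal, and the dim ones carry no level to compare.

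YES1, a broadly expressed SRC family kinase, was measured by the single probe set 1674_at. It read 15070.4, 9981, 4484, 12428 and 9903 on resistant arrays, against 3224, 3004, 1546, 2212 and 1626 on sensitive arrays. Every array was above its limit, and the lowest resistant array lay above the highest sensitive one. The log2 difference was 2.06 (SE 0.33, 95% interval 1.34 to 2.78, adjusted p = 0.00185, limma). The gene table also lists a YES1 pseudogene, and whether its transcripts reach this probe set is not known from the sources used here.

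Resistant replicate 3 gave both the highest FYN signal of its group in 2039_s_at and 40480_s_at and the lowest YES1 signal.

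LYN, the SRC family kinase most often tied to BCR-ABL signalling in myeloid cells, was bright in both groups in all 3 of its probe sets. Probe set 1402_at read 6177, 7025, 6180.4, 5541 and 4870.4 on resistant arrays, against 13695, 9693, 9765, 8513 and 6686 on sensitive arrays. Only the lowest sensitive array fell within the resistant range. The log2 difference was -0.66 (95% interval -1.12 to -0.20, unadjusted p = 0.00848, adjusted p = 0.0895, limma).

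The other LYN probe sets leaned the same way and were not called. Probe set 2024_s_at averaged 4044 ± 1146 in resistant and 5983 ± 966 in sensitive arrays (log2 difference -0.58, adjusted p = 0.172, limma). Probe set 32616_at, annotated to the same reference transcript as 1402_at, averaged 5581 ± 1129 and 8003 ± 897 in resistant and sensitive arrays (log2 difference -0.53, adjusted p = 0.136, limma; SD, n = 5 each). Probe set 1402_at was called lower under 4 of 18 alternative settings, at adjusted p-values from 0.0219, and missed the threshold under the others, up to 0.195.

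LYN lies on chromosome 8, where more probe sets were called lower than higher in resistant cells. Of the 397 other probe sets named to chromosome 8, 79 were called lower and 22 higher (19.9% and 5.54%), beside 2.99% and 4.42% over all probe sets. Their median log2 difference was -0.25. Of the 12 nearest measured genes, 6 on each side of LYN, 3 were called lower and 0 higher by limma, each gene by its brightest probe set. These were UBXN2B (log2 difference -1.25), RGS20 (-1.28) and ATP6V1H (-0.94), and LYPLA1, the nearest measured gene on one side, had -0.35 (adjusted p = 0.328, limma). The part of the chromosome in the LYN difference was not tested.

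**Figure D2:**
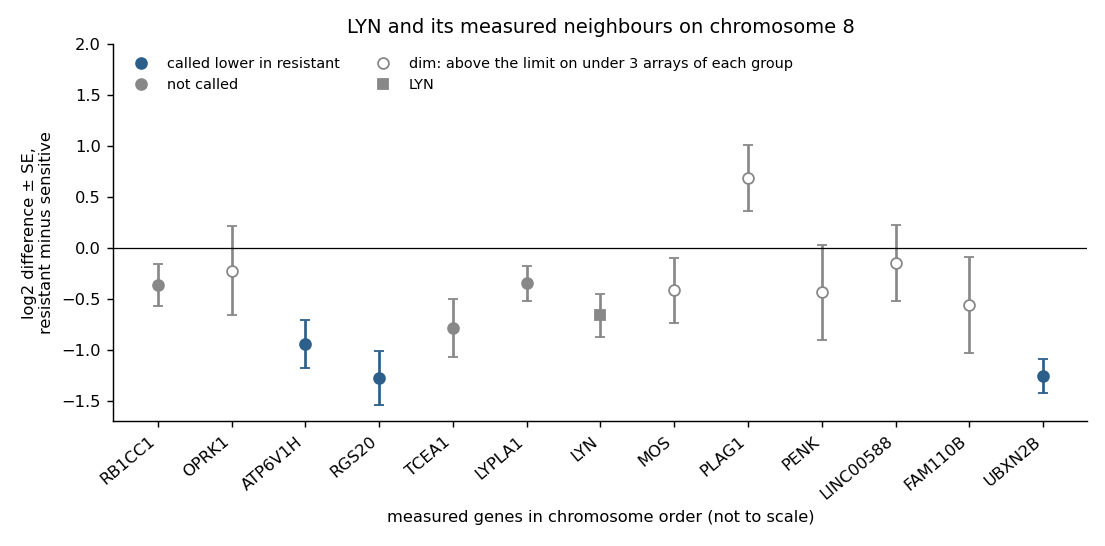
Log2 differences (resistant minus sensitive, ± SE) of LYN and of its 6 nearest measured genes on each side on chromosome 8, in gene order. LYN at -0.66 lies among neighbours from -1.28 (RGS20) to 0.69 (PLAG1, dim), of which 11 of 12 are negative and 3 are called lower. Apart from PLAG1, the neighbours OPRK1, MOS, PENK, LINC00588 and FAM110B are also at background on all or all but 1 of the arrays.

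SRC, the founding member of the family, was near the background limit. Its probe set 1938_at read 753, 838, 1014, 230.5 and 884 on resistant arrays, against 488, 734, 871, 909 and 654 on sensitive arrays. The groups overlapped, and the log2 difference of -0.06 had a 95% interval of -0.74 to 0.62 (adjusted p = 0.958, limma). The other SRC probe set, 38904_at, never exceeded the limit, from 37.3 to 638 in resistant and from 15.6 to 388 in sensitive cells.

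FGR, a SRC family kinase of mature myeloid cells, also overlapped between the groups. Its probe set 1780_at read 867, 727, 555, 858 and 1103 on resistant arrays, against 531, 638, 1140.5, 1139.9 and 408 on sensitive arrays. Of each group 4 arrays were above the limit. The log2 difference was 0.14 (95% interval -0.47 to 0.75, adjusted p = 0.87, limma).

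LCK, the SRC family kinase of T cells, gave no usable signal. Of its 3 probe sets, 1266_s_at and 33238_at never exceeded the limit, and 2059_s_at passed it on 1 sensitive array. Probe set 2059_s_at read 127, 97.3, 27.8, 461 and 268 on resistant arrays, against 192, 493, 74.8, 486 and 265 on sensitive arrays. The log2 differences of the 3 lay between -0.46 and 0.08 (lowest adjusted p = 0.644, limma).

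CSK, the kinase that holds SRC family members inactive, was lower in resistant cells. Its probe set 1768_s_at read 5048, 3102, 4194, 3941 and 5067 on resistant arrays, against 5432, 8900.2, 7121, 7137 and 7781 on sensitive arrays. The groups did not overlap, although the lowest sensitive array was close to the highest resistant ones. The log2 difference was -0.76 (SE 0.20, adjusted p = 0.0393, limma). Of the 9 alternatives under which the call was lost, 7 were fits with 1 array left out (resistant replicate 2, 3 or 4, or sensitive replicate 2, 3, 4 or 5, adjusted p of up to 0.107), and 1 had the replicate number as a block (adjusted p = 0.114).

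SYK, the kinase recruited to phosphorylated ITAM motifs, fell in all 3 of its probe sets. Probe set 1630_s_at read 1386, 1749, 1864, 1957 and 2839 on resistant arrays, against 8565, 7129, 6604, 7379 and 6629.8 on sensitive arrays. The highest resistant array was far below the lowest sensitive one (log2 difference -1.86, SE 0.20, adjusted p = 8.82e-05, limma). All arrays of both groups were above their limit, so the SYK transcript was reduced and still measurable in resistant cells.

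Probe set 36885_at of SYK read 776, 1130.1, 1474, 1465 and 1817 on resistant arrays, against 6734, 4970.4, 4796, 4748 and 5042 on sensitive arrays. Again the groups were well apart (log2 difference -1.93, SE 0.23, adjusted p = 0.000162, limma). Probe set 548_s_at read 553, 779, 1392, 2809 and 1602 on resistant arrays, against 5428, 4268, 2649, 6032 and 4240.2 on sensitive arrays. Here 1 resistant array exceeded the lowest sensitive one, and the difference was called as well (log2 difference -1.73, SE 0.38, adjusted p = 0.0138, limma).

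The SYK probe sets also varied together within the groups. Deviations from the group means correlated at Pearson's r of 0.90, 0.72 and 0.63 among the 3 probe sets over 10 arrays. Resistant replicate 1 was the lowest of its group in all 3. The 3 LYN probe sets had r from -0.16 to 0.34. For LYN the variation within a group was thus hardly shared between probe sets.

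BTK, a TEC family kinase that acts below SYK, was above the limit on every array and was not called. Its probe set 38213_at read 6572, 4029, 5470.4, 4829 and 3644 on resistant arrays, against 4435, 4765, 4189, 3264 and 2682 on sensitive arrays. The groups overlapped, and the log2 difference of 0.33 had a 95% interval of -0.15 to 0.82 (adjusted p = 0.511, limma).

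**Figure D3:**
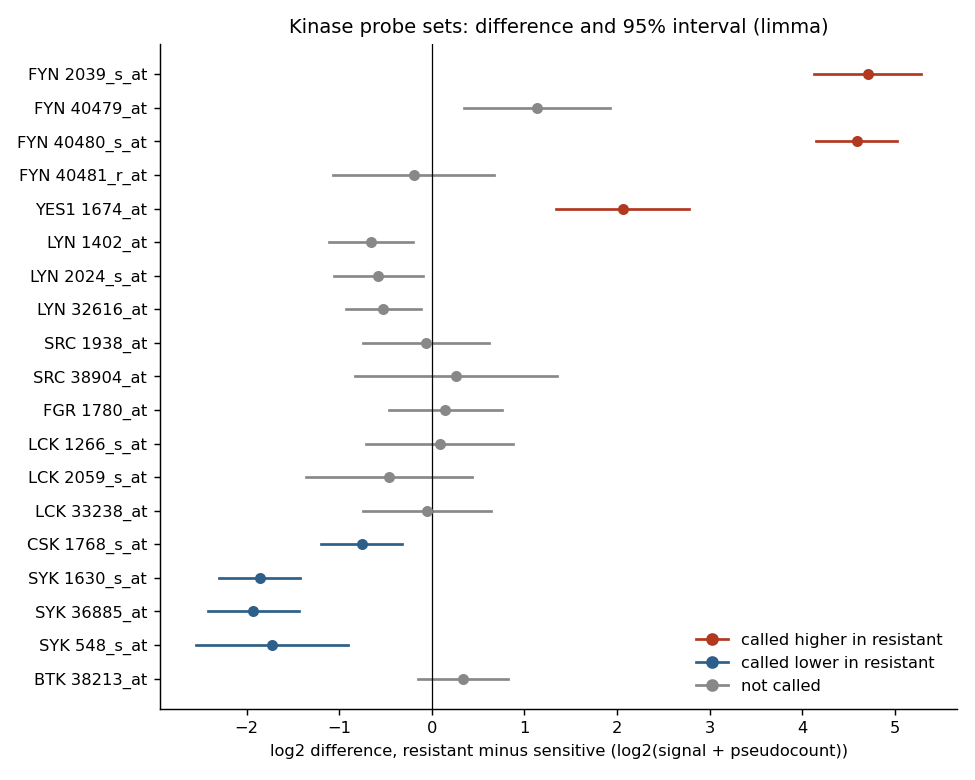
Log2 difference (resistant minus sensitive, on the log2(signal + 114.8) scale) of each kinase probe set with its 95% interval from limma, coloured by whether it was called. The FYN pair at 4.71 and 4.59 and YES1 at 2.06 lie to the right, the 3 SYK probe sets at -1.73 to -1.93 and CSK at -0.76 to the left, and the intervals of SRC, FGR, LCK and BTK span 0.

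Other genes of these pathways were read from lists that were chosen with earlier results of these data known. Close relatives of the members were mostly at background. Of 6 probe sets for 4 further genes of the SRC and CSK families, 0 were called by limma and 0 had an unadjusted p under 0.05, and 5 never exceeded the limit. The exception was MATK, a relative of CSK, which was above it on every array (log2 difference -0.16, adjusted p = 0.859, limma). Of 5 probe sets for the further SYK and TEC family kinases ZAP70, TEC and TXK, 0 were called and 0 had an unadjusted p under 0.05. The median log2 differences of these lists were -0.26 and 0.52.

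The list of switches of SRC family kinases also holds the adaptor DOK1 and the cytokine signalling inhibitor SOCS1. Of its 26 probe sets 2 were called higher, of SOCS1 and DOK1, and 2 lower, both of PTPRE. The shares of 7.69% each stand beside 4.42% higher and 2.99% lower over all probe sets, and the median log2 difference was -0.03. PTPRE, a receptor-type phosphatase known to activate SRC family kinases, fell in both of its probe sets, though the call of 32916_at (adjusted p = 0.0308, limma) was lost under 8 of 18 alternatives. Its probe set 1150_at read 261, 286, 119, 19.2 and 95.2 on resistant arrays, against 754, 943, 846, 635 and 931 on sensitive arrays. No resistant array was above the limit and every sensitive one was, which gives at least 1.53-fold lower (adjusted p = 0.00138, limma). SOCS1, an inhibitor of cytokine receptor signalling, averaged 3776 ± 1379.6 in resistant and 784 ± 286 in sensitive arrays (log2 difference 2.08, adjusted p = 0.00171, limma), and its other probe set was at background and not called. DOK1, an adaptor that restrains tyrosine kinase signalling and is a substrate of BCR-ABL and SRC family kinases, averaged 6878 ± 1592 and 2992 ± 416 in resistant and sensitive arrays in its called probe set (log2 difference 1.16, adjusted p = 0.00262, limma; SD, n = 5 each). The other DOK1 probe sets, 815_at and 816_g_at, were not called (log2 differences 0.79 and 0.67, adjusted p = 0.107 and 0.0923, limma).

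Of 48 probe sets for receptors, adaptors and effectors around SYK and BTK, 7 were called higher, 3 lower and 38 not at all. The shares of 14.6% higher and 6.25% lower stand beside 4.42% and 2.99% over all probe sets, and the median log2 difference was -0.14. Among the lower calls, FCER1A, a chain of an IgE receptor, was above the limit on no array of either group. Among the higher calls, INPP5D was above it on every array (log2 difference 0.85, adjusted p = 0.0424, limma), a call lost under 10 of 18 alternatives. LAT, the membrane scaffold that SYK and ZAP70 phosphorylate, read 5592, 4142, 9397, 3944 and 4463 on resistant arrays, against 211, 327, 235, 784 and 1009 on sensitive arrays. The groups were well apart (log2 difference 3.27, SE 0.38, adjusted p = 0.000155, limma), with 2 sensitive arrays above the limit. LCP2, which encodes the LAT partner SLP-76, averaged 10318 ± 2039 in resistant and 2288 ± 259 in sensitive arrays (log2 difference 2.11, adjusted p = 1.39e-05, limma; SD, n = 5 each). Both adaptors rose in the comparison in which SYK fell, and a link between them and SYK was not tested.

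PRKCB, the protein kinase C of B cell receptor signalling, rose in 3 of its 4 probe sets, by 1.10, 1.19 and 0.88 on the log2 scale (adjusted p = 0.00831, 0.00327 and 0.0405, limma), and the last of these calls was lost under 10 of 18 alternatives (adjusted p of up to 0.133). PRKCD, another protein kinase C, averaged 541 ± 165 in resistant and 1522 ± 499 in sensitive arrays in its called probe set (log2 difference -1.30, adjusted p = 0.00637, limma), with 2 resistant and 5 sensitive arrays above the limit. Its other probe set was not called. PLCG2, the phospholipase C that SYK and BTK activate, averaged 2049 ± 229.6 in resistant and 4040.4 ± 522 in sensitive arrays (log2 difference -0.94, adjusted p = 0.00404, limma). Its other probe set was at -0.79 and not called (adjusted p = 0.0997, limma). FCGR2A, an Fc receptor with an ITAM of its own, was called in 1 of its 2 probe sets (log2 difference 1.30, adjusted p = 0.0229, limma), a call lost under 6 of 18 alternatives (adjusted p of up to 0.0807).

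Of 41 probe sets for adaptors and substrates of SRC family kinases, 5 were called higher and 1 lower. The shares of 12.2% and 2.44% stand beside 4.42% and 2.99% over all probe sets, and the median log2 difference was 0.17. FYB1, an adaptor named for binding FYN, averaged 1219 ± 351 in resistant and 351 ± 221 in sensitive arrays (log2 difference 1.60, adjusted p = 0.00751, limma; SD, n = 5 each). Only 1 of the sensitive arrays was above the limit for FYB1, so its difference is partly one against background. PTK2, a chromosome 8 gene that encodes focal adhesion kinase, a partner of SRC at adhesion sites, read 3659, 3042, 3037, 2915 and 3063 on resistant arrays, against 427, 1122, 815, 1657 and 1863 on sensitive arrays. Its groups did not overlap (log2 difference 1.47, adjusted p = 0.0126, limma), and its other probe set was not called (0.52, adjusted p = 0.205, limma). STAT5A, a transcription factor phosphorylated by BCR-ABL and SRC family kinases, rose in both of its probe sets, by 1.41 and 1.48 on the log2 scale (adjusted p = 0.00555 and 0.000706, limma). CTNND1, a catenin first found as a SRC substrate, was at least 1.49-fold higher (adjusted p = 0.0399, limma), a call lost under 11 of 18 alternatives (adjusted p of up to 0.119). The PTK2 relative PTK2B was called lower in 1 probe set in which no array of either group was above the limit (adjusted p = 0.0264, limma), so no fold is given.

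**Figure D4:**
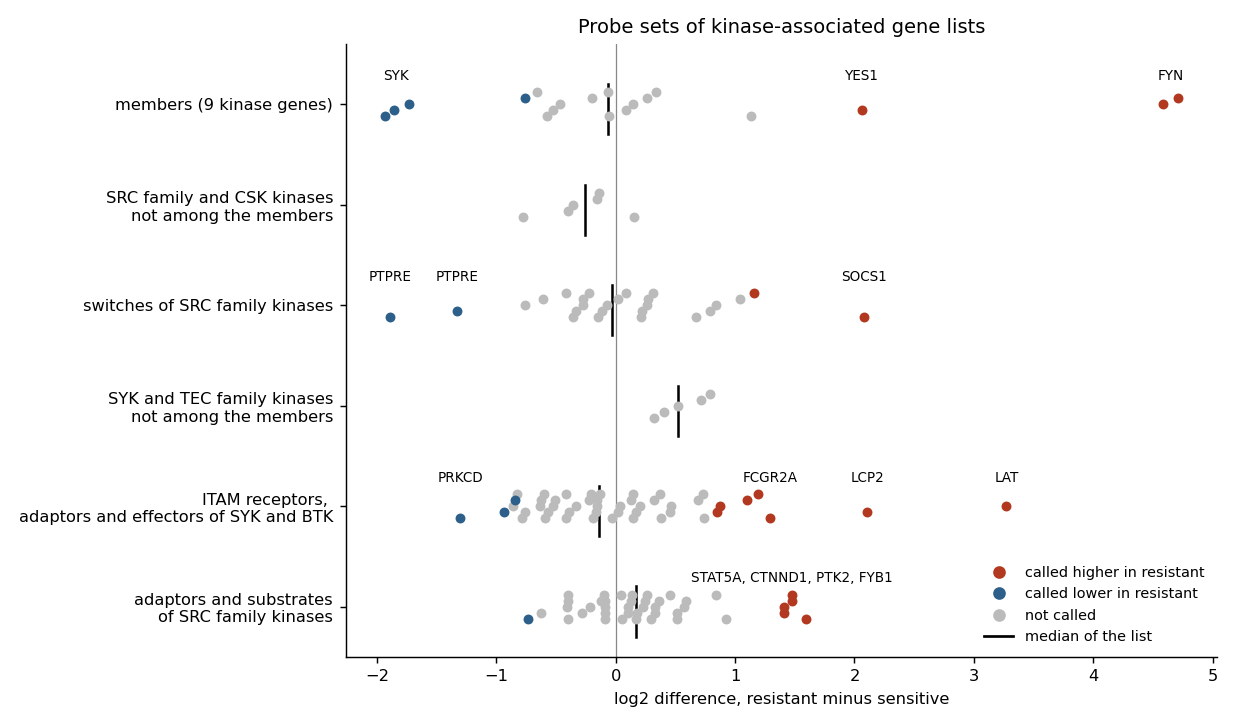
Log2 difference (resistant minus sensitive) of every probe set of the 9 kinase genes and of 5 lists of associated genes, in rows, with called probe sets coloured and a black line at each list's median. Called probe sets of FYN, LAT, LCP2, SOCS1 and YES1 lie above 2, and those of SYK, PTPRE and PRKCD below -1.

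Because these kinases differ between blood lineages, lineage markers were read on the same arrays. Of markers for a myeloid leukaemia line, PTPRC and LYL1 were above the limit on all 10 arrays in each of their probe sets, and MYB in 7 of its 8. KIT never exceeded the limit. CD34 did on 1 resistant and 2 sensitive arrays in probe set 38747_at, and on 4 and 5 in its other probe set, 538_at. The myeloid factor gene SPI1 exceeded it on 0 resistant and 4 sensitive arrays. ABL1 was called higher in 3 of its 6 probe sets (log2 differences 0.80, 0.71 and 1.10, adjusted p = 0.0239, 0.0140 and 0.0382, limma). These were the only calls among the 30 probe sets of that list (10% higher, beside 4.42% over all probe sets). BCR was called in none of its probe sets (log2 differences 0.01 to 0.89), nor was SPN. The summed signal of 14 granulocytic probe sets was 2835 to 6024 on resistant arrays, against 217279 to 507306 on sensitive arrays. PRG2 was the largest part of the sum on sensitive arrays, with a mean of 146602. The sensitive arrays differed among themselves in this list. CLC read 3813, 3860, 3590, 41628 and 107507 on them in replicate order, and EPX 4885, 3585, 4039, 40734 and 38859. CTSG 37105_at went the other way, at 11912, 9035, 3007.5, 1773 and 1675. Of the 14, 11 were called lower (78.6%, beside 2.99% over all probe sets). MPO, LTF and CAMP were not called (log2 differences 0.25, 0.65 and 0.59). Of these 14, 7 never exceeded the limit in resistant cells, PRTN3, ELANE and CEBPE included, and 1 never did in sensitive cells. SYK thus fell together with most of the granulocytic markers, whose part in the SYK difference was not tested. In the megakaryocytic list 3 of 11 probe sets were called higher and 0 lower (27.3% higher, beside 4.42% over all probe sets). ITGA2B, the platelet integrin chain, rose in both of its probe sets (log2 differences 3.40 and 3.69, adjusted p = 1.81e-06 and 6.71e-05, limma). The remaining call was ITGB3 852_at (log2 difference 1.29, adjusted p = 0.00979, limma), above the limit on 1 resistant and 0 sensitive arrays. ITGB3 1176_at and 37952_at were not called (log2 differences -0.63 and 0.02). Of the list's 11 probe sets 8 never exceeded the limit in resistant cells and 8 never did in sensitive cells. In the erythroid list KLF1, an erythroid transcription factor, rose in both of its probe sets (log2 differences 2.87 and 3.22, adjusted p = 0.000206 and 0.000142, limma). The other 8 of 10 probe sets were not called, so 20% of that list was called higher, beside 4.42% over all probe sets. In the monocytic list 2 of 10 probe sets were called higher (20%, beside 4.42% over all probe sets). They were LYZ, by at least 2.53-fold (adjusted p = 0.00202, limma), and 1 of the 3 for AIF1 (log2 difference 0.99, adjusted p = 0.0268, limma). Of these 10 probe sets 5 never exceeded the limit in resistant cells and 6 never did in sensitive cells. The part of these lineage markers in the kinase differences was not tested. FYN, LAT and LCP2 are also known from platelets and T cells. Of T lymphoid markers 0 of 15 probe sets were called by limma (unadjusted p under 0.05 in 3, of which 1 was higher and 2 lower). CD3D, CD3G, CD28 and GATA3 never exceeded the limit, whereas CD247 and 2 of 3 CD4 probe sets were above it on all 10 arrays. CD3E exceeded it on 3 resistant and 4 sensitive arrays, and CD6 probe set 40668_s_at on 4 and 5. The summed T lymphoid signal was 10119 to 12626 on resistant arrays, against 9895 to 14036 on sensitive arrays. CD247 and the same 2 CD4 probe sets have the largest mean signals in that sum. Of 14 B lymphoid probe sets limma called 0, and 1 had an unadjusted p under 0.05.

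The probe sets of other genes most like the leading members over the 10 arrays were listed as a description, among bright probe sets with 1 gene name. FYN 2039_s_at was most like RUNDC3B, RAPGEF2, TFPI, ZHX2 and ALDH1A1, with Pearson's r of 0.991, 0.989, 0.987, 0.987 and 0.987. ALDH1A1 is the aldehyde dehydrogenase that inactivates cyclophosphamide metabolites. Within the groups the same genes had r of deviations of 0.72, 0.67, 0.75, 0.72 and 0.05, values in which the 5 sensitive arrays carry only background for FYN. In all, 78 of 6517 probe sets had r over 0.95 with this FYN probe set. SYK 36885_at was most like LYST, ATP11B, PRTN3, CST7 and GBE1, with r of 0.973, 0.973, 0.970, 0.969 and 0.968, and within the groups 0.79, 0.63, 0.58, 0.55 and 0.60. For SYK 21 of 6516 probe sets had r over 0.95. Each r over the 10 arrays is set mainly by the difference between the groups, which the values within the groups leave out.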

How the data were processed

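The deposited table holds the authors' signal intensity, untransformed, from 1-colour Affymetrix arrays of biotin-labelled cRNA. The submitters' processing notes name MAS5, but no version or settings. The authors had brought all arrays to a common level, with 2% trimmed means of 2501.33 to 2501.51.

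Of 12625 probe sets 67 are controls and were left out of tests. Names came from the platform annotation, with symbols brought up to date through Entrez identifiers (RefSeq, GRCh38.p14): 10943 probe sets had 1 symbol (10934 matched), 545 several and 1070 none. Probe sets with several symbols named no gene. Each array was scaled to the common trimmed mean, and log2(signal + 114.8) was analysed, where 114.8 is the 20th percentile of all signals. The difference, resistant minus sensitive, was fitted with limma 3.58.1 (lmFit, then eBayes; R 4.3.3) without a covariate, on all 12558 probe sets, with Benjamini-Hochberg adjustment. The fit was tested on simulated data. All intervals are from this fit.

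The members, lists and tests were chosen with earlier results of these data known. Text names every member, called genes of the lists (at most 6 a list, by absolute difference) and the 5 probe sets most like the highest and lowest called member. In the list around SYK and BTK, INPP5D and FCER1A are named beyond these 6. The neighbours of LYN were listed after the data had been seen. Same-numbered arrays had correlations of deviations from 0.0086 to 0.123, with 1 of 5 over 0.1, so the numbers were not taken as pairs. Alternatives were 3 other scalings, pseudocounts of 16 and the 40th percentile, a filter on dim probe sets, another variance model, the replicate block and each array left out. The number of arrays limits the precision.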

Additional observations from a re-analysis of the deposited data

Results flagged for a closer look

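A single array stood apart from the other 4 of its group, by Dixon's criterion at the 95% level, in 6 of 78 groups of arrays looked at, where chance gives about 1 in 20. In SYK 36885_at, sensitive replicate 1 read 6734 and the others 4748 to 5042. In LYN 32616_at, sensitive replicate 4 read 6461 and the others 8087 to 8774. In SRC 1938_at, resistant replicate 4 read 230.5 and the others 753 to 1014. In the dim FYN probe set 40481_r_at, resistant replicate 2 read 703 and the others 90.3 to 188. In PTK2 36117_at, resistant replicate 1 read 3659 and the others 2915 to 3063, and in CTNND1 40443_at, resistant replicate 3 read 333 and the others 785 to 1039. Each of the 6 was a different array, and the cause was not tested.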

How the results depend on the processing

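Under the 18 alternatives the number of probe sets called over the whole table lay between 691 and 1169, against 931 in the main analysis. Of the kinase probe sets 3 or 4 were called higher and 3 to 5 lower, against 3 and 4. The calls of FYN (2039_s_at and 40480_s_at), YES1 and all 3 SYK probe sets held under each of the 18, at adjusted p-values of up to 0.0397. Over the 19 kinase probe sets 322 of 336 repeats stayed on their side of the threshold, 9 lost a call, all of CSK, and 5 gained one, 4 of them LYN 1402_at and 1 FYN 40479_at. CSK had adjusted p = 0.0563 with a pseudocount of 16 (log2 difference -0.77), 0.114 with the replicate block, and log2 differences of -0.65 to -0.86 with 1 array left out. The replicate block gave 794 calls over the whole table and 3 higher and 3 lower kinase probe sets, and changed no other call of a kinase. Scaling to a common median shifted every log2 difference by -0.11. The pseudocount set the size of the FYN differences, which for 40480_s_at ran from 3.25 at the 40th percentile to 5.90 at 16. Of 20 called probe sets in the gene lists 13 were never lost. The list around SYK and BTK had 4 to 8 probe sets called higher, 4 of them with the common median and 4 without sensitive replicate 5, and the switches of SRC family kinases had 2 to 4 higher and 1 to 3 lower, and the 1 lower call among adaptors and substrates was lost under 10 alternatives. Signals at or below the background limit, as for LCK and the dim probe sets of FYN and SRC, carry no order.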
